A study of Homo sapiens with 10 samples.

Results

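The genes described here were 35 targets and partners of the transcription factor ATF4, the main regulator of the cellular response to a shortage of amino acids. They were chosen by gene symbol from a list of ATF4 itself, its partner factors, and the enzymes, transporters and stress proteins whose genes it is known to act on. All 35 symbols were found, each on a single row, among the 52402 gene symbols of the count files. Of these, 34 passed the filter on low counts that left 14884 genes for testing, and NUPR1, a small stress-induced chromatin protein, did not.

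Expression was measured by mRNA-sequencing in BEAS2B, an immortalized human bronchial epithelial cell line of wild-type genotype, 48 h after transfection with Lipofectamine 2000. The 5 groups of 2 libraries each were Con (scrambled miRNA control), miR3124 (miR-3124-5p mimic), miR200b (miR-200b-3p mimic), miR92b_in (miR-92b inhibitor) and MIX (the 3 reagents together). Each single reagent was used at a final concentration of 50 nM, and the amount of each reagent in MIX was not stated. The study asked which transcripts respond in a normal lung cell to miRNAs found in the exosomes of patients with small cell lung cancer. Every group received oligonucleotide and lipid, and the 4 treated groups shared the same 2 Con libraries. The labels name no separate control for the mimics and the inhibitor. The labels do not say whether the 2 libraries of a group came from separate transfections, so p-values measure only the spread between these libraries, which may be technical.

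In the integrated stress response, kinases that sense uncharged tRNA, unfolded protein, heme loss or double-stranded RNA phosphorylate the translation factor eIF2. Bulk protein synthesis then slows while the ATF4 mRNA is translated more, and ATF4 pairs with C/EBP factors on composite sites in the promoters of genes for amino acid synthesis, amino acid uptake and tRNA charging. DDIT3, TRIB3, CHAC1 and PPP1R15A are induced further along the response, and PPP1R15A closes the loop by returning phosphatase to eIF2. Because ATF4 is controlled largely at translation, the level of its mRNA does not measure the protein or its activity.

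The mature miRNAs that the reagents mimic or oppose are shown first, because each acts on mRNAs through its seed. The sequences were those of RefSeq on GRCh38.p14, written 5′ to 3′ with the seed (bases 2 to 8) in capitals. The mature sequences lie at chr1:248826383-248826403, chr1:1167160-1167181, chr1:155195196-155195217 and chr1:155195237-155195258, all on the plus strand. Both arms of miR-92b are given, since the labels do not name the arm that the inhibitor targets.
hsa-miR-3124-5p: uUCGCGGGcgaaggcaaaguc
hsa-miR-200b-3p: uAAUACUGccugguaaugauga
hsa-miR-92b-5p: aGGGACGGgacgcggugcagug
hsa-miR-92b-3p: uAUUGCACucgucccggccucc
The 4 seeds differ from each other, so no single 7-base target word is shared between the reagents.

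Library totals ranged from 13587666 to 18503890 counts, and the members together took between 0.35% and 0.428% of the counts of a library, lowest in miR3124 and highest in miR92b_in. Mature miRNAs are not measured by these files, so the labels were checked on ZEB1 and ZEB2, the repressors of epithelial genes that miR-200 family members are known to target. ZEB1 fell from 63.3 and 62.9 CPM (counts scaled to a common library size by size factors) in Con to 25.9 and 25.6 in miR200b and to 29.7 and 28.5 in MIX, and ZEB2 fell in the same groups. The epithelial keratins KRT8 and KRT18 and the mesenchymal genes VIM, FN1 and CDH2 were all expressed above 200 CPM in every library. The further epithelial markers CDH1, EPCAM and KRT5 were below 0.5 CPM in Con. Among 8 markers of other cell types, HBB, DCN and CHGA had no count and 4 more stayed below 1 CPM, and the endothelial CDH5 reached 4.03 and 2.49 CPM in miR3124. The keratin KRT19 had 8.47 and 7.94 CPM in Con, 0.615 and 0.905 in miR3124, 13.8 and 15.1 in miR200b, and 2.49 and 2.74 in MIX. VIM fell to 827 and 799 CPM in miR3124 from 3894 and 3707 in Con, and CDH1 and EPCAM rose in miR200b and MIX. The part of these state markers in the member values below was not tested, and in bulk RNA fewer cells expressing a gene and less RNA per cell cannot be told apart.

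In each group against Con, members moved in both directions. A member is called higher or lower when edgeR's quasi-likelihood test gave an adjusted p under 0.05 (Benjamini-Hochberg over all 14884 genes). In miR3124, 8 of 34 members rose and 17 fell, where 25.7% of all genes tested rose and 25.3% fell. In miR200b, 9 rose and 11 fell beside a background of 21.4% and 19.1%, and in miR92b_in, 11 rose and 13 fell beside 17.5% and 18.2%. In MIX, 12 rose and 13 fell, where 21.5% of all genes rose and 21.1% fell. The members' median log2 fold change was -0.15 in miR3124, -0.03 in miR200b, -0.07 in miR92b_in and 0.07 in MIX, with a median of all genes tested within 0.01 of 0 in each. Without sign, the members' median was 0.280 in miR3124 and 0.222 in miR200b, no larger than the 0.287 and 0.230 of all genes. It was 0.303 in miR92b_in and 0.286 in MIX, where all genes had 0.201 and 0.232.

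Large changes were few. With a fold of at least 2 as well as the adjusted p, SLC7A1 was the only such member in miR3124, where 8.13% of all genes passed. PHGDH was the only one in miR200b beside 4.88% of all genes, DDIT3 and PPP1R15A were those of miR92b_in beside 1.91%, and CHAC1 and PPP1R15A those of MIX beside 4.67%. With the unadjusted p under 0.05 in place of the adjusted p, the same members passed, beside 8.81%, 5.7%, 2.63% and 5.42% of all genes in miR3124, miR200b, miR92b_in and MIX. CHAC1 was higher in all 4 groups and ALDH18A1 was lower in all 4, and 18 members were higher in at least 1 group and lower in another. SLC6A9 and CBS were called in none of the 4. The shares of all genes with these patterns were not counted, so the patterns are not read as particular to the members. With 1 library left out in turn, 17 of 25 calls in miR3124 were kept (all but ALDH18A1, ASNS, CEBPG, CHAC1, CTH, DDIT3, MTHFD2 and PCK2), and 15 of 20 in miR200b (all but ALDH1L2, CHAC1, GPT2, PPP1R15A and SHMT2). Likewise 18 of 24 were kept in miR92b_in (all but ALDH18A1, JDP2, PCK2, PYCR1, SLC1A5 and SLC38A2) and 17 of 25 in MIX (all but ALDH18A1, ALDH1L2, CEBPG, JDP2, PCK2, PYCR1, SLC1A4 and SLC38A2). The falls in MIX numbered 7 without Con replicate 1 and 8 without MIX replicate 2, and those in miR92b_in 8 without miR92b_in replicate 2.

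**Figure D1:**
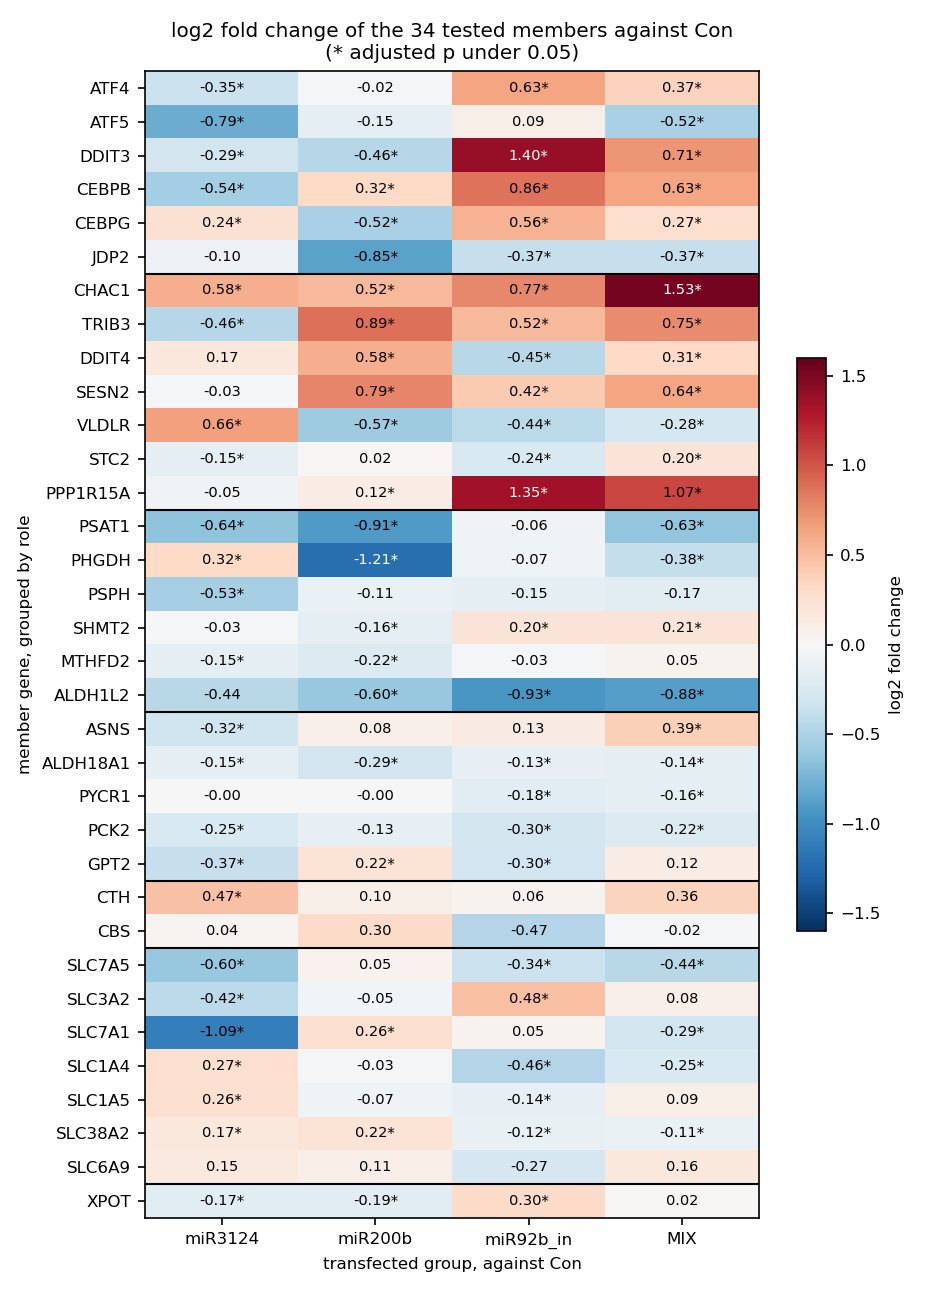
Log2 fold change against Con (color and printed value) of the 34 tested members in rows, grouped by role, with the 4 transfected groups in columns and an asterisk where the adjusted p was under 0.05. The DDIT3 and PPP1R15A cells are strongest in miR92b_in, PHGDH and PSAT1 are lowest in miR200b, and SLC7A1 is lowest in miR3124.

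Among the transcription factors, ATF4, DDIT3 and CEBPB were lower in miR3124 and higher in miR92b_in and MIX. ATF4 measured 196 and 194 CPM in Con, 151 and 155 in miR3124, 196 and 189.7 in miR200b, 297 and 307 in miR92b_in, and 248 and 256 in MIX. Both miR3124 libraries lay below every Con library and all miR92b_in and MIX libraries above, while miR200b overlapped with Con. The log2 fold change of ATF4 was -0.35 ± 0.04 (SE, adjusted p = 6.90e-10) in miR3124, 0.63 ± 0.04 (SE, adjusted p = 6.39e-18) in miR92b_in and 0.37 ± 0.04 (SE, adjusted p = 6.49e-11) in MIX. In miR200b it was -0.02 ± 0.04 (SE, adjusted p = 0.76).

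DDIT3 encodes CHOP, a C/EBP-related factor of late stress, and measured 11.6 and 12.5 CPM in Con, 9.36 and 10.3 in miR3124, 8.23 and 9.205 in miR200b, 31.5 and 32.03 in miR92b_in, and 17.7 and 21.7 in MIX. It was highest in both miR92b_in libraries, next in the MIX libraries, and lowest in miR200b, with no overlap between Con and any other group. Its log2 fold change was 1.40 ± 0.10 (SE, adjusted p = 1.71e-15) in miR92b_in and 0.71 ± 0.11 (SE, adjusted p = 3.40e-07) in MIX, but -0.46 ± 0.13 (SE, adjusted p = 0.003) in miR200b and -0.29 ± 0.12 (SE, adjusted p = 0.046) in miR3124. The call in miR3124 was lost when any 1 library of Con or miR3124 was left out, with an adjusted p of up to 0.22. Of the annotated DDIT3 exons, 31.6% are overlapped by genes on the other strand, and the strand setting of the counting is not given in the sources used here.

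CEBPB, a C/EBP factor that partners with ATF4, measured 51.3 and 50.1 CPM in Con, 35.4 and 34.3 in miR3124, 62.2 and 64.6 in miR200b, 90.9 and 93.6 in miR92b_in, and 77.4 and 79.96 in MIX. It was below Con in miR3124 and above Con in the other groups without overlap, at a log2 fold change of -0.54 ± 0.06, 0.32 ± 0.06, 0.86 ± 0.05 and 0.63 ± 0.05 (SE) in miR3124, miR200b, miR92b_in and MIX, with adjusted p-values from 1.31e-17 to 8.59e-06. CEBPG, another dimer partner of ATF4, rose in miR92b_in (0.56), MIX (0.27) and miR3124 (0.24) and fell in miR200b (-0.52), all on the log2 scale. The calls for CEBPG in miR3124 and in MIX were lost without Con replicate 2.

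ATF5, which like ATF4 is translated when eIF2 is phosphorylated, followed another order. It measured 28.3 and 30.4 CPM in Con, 16.4 and 17.4 in miR3124, 25.3 and 27.4 in miR200b, 29.6 and 32.6 in miR92b_in, and 22.2 and 18.7 in MIX. The miR3124 and MIX libraries lay below all others, while miR92b_in overlapped with Con and miR200b lay just below it. Its log2 fold change was -0.79 ± 0.09 (SE, adjusted p = 6.62e-10) in miR3124 and -0.52 ± 0.09 (SE, adjusted p = 3.34e-06) in MIX, against -0.15 ± 0.09 in miR200b and 0.09 ± 0.08 in miR92b_in, neither of which passed the test. Genes on the other strand overlap 21.2% of its annotated exons, and 11.8% of those of CEBPB.

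JDP2, a repressor that dimerizes with AP-1 and CHOP proteins, was expressed at a low level of 10.3 and 8.12 CPM in Con, 9.15 and 8.15 in miR3124, 5.31 and 4.95 in miR200b, 7.002 and 7.28 in miR92b_in, and 7.24 and 7.05 in MIX. The miR200b libraries were the lowest and lay apart from Con, with a log2 fold change of -0.85 ± 0.16 (SE, adjusted p = 1.63e-05). Its smaller falls in miR92b_in (-0.37) and MIX (-0.37) lost their calls without Con replicate 1 and without either library of the treated group. NUPR1 stayed between 0.109 and 0.819 CPM, where a count of 3 in a library equals 0.161 to 0.224 CPM on the same scale, and a difference between groups was not detectable at this depth.

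**Figure D2:**
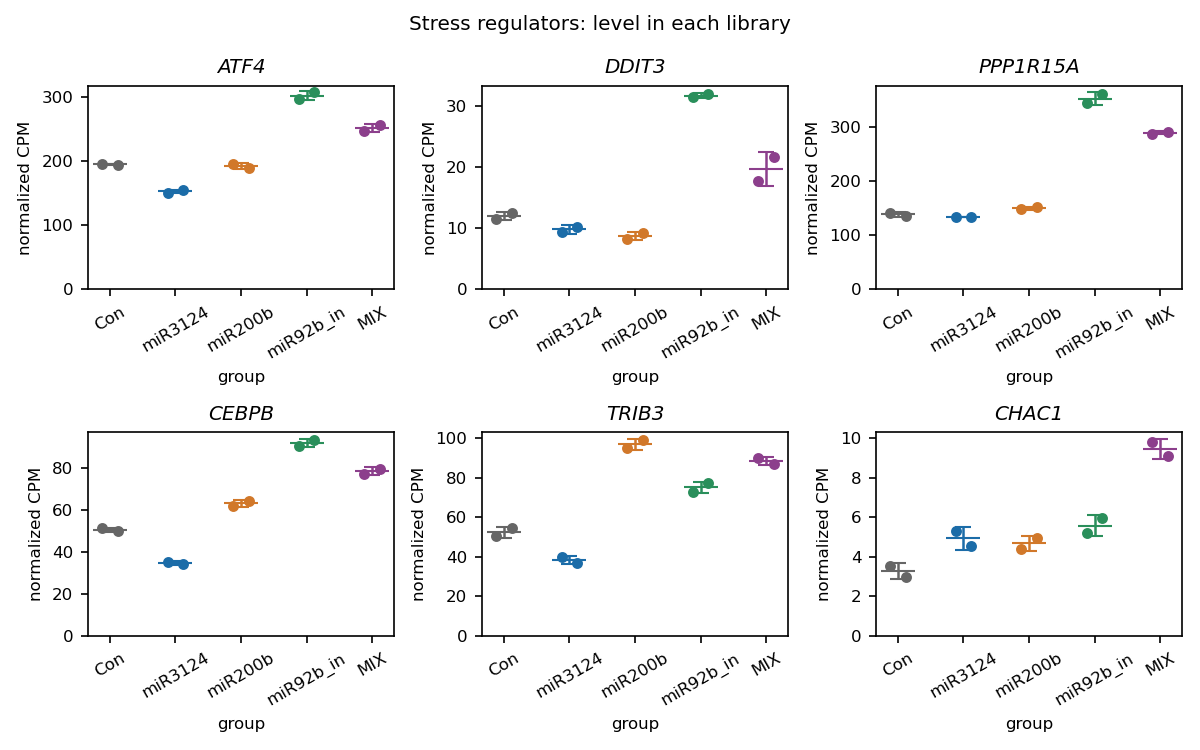
Normalized CPM (vertical axes, each starting at 0) of 6 stress regulators in the 5 groups, with a point for each library, a bar at the mean and whiskers of 1 SD (n = 2). ATF4, DDIT3, PPP1R15A and CEBPB are highest in miR92b_in, TRIB3 in miR200b and CHAC1 in MIX.

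Of the 7 stress effectors and feedback genes, 6 were higher and 1 lower in MIX, beside 21.5% and 21.1% of all genes, and 5 were higher and 1 lower in miR200b, beside 21.4% and 19.1%. In miR92b_in 4 were higher and 3 lower, and in miR3124 2 and 2. The 5 in miR200b became 3 without Con replicate 2 or without miR200b replicate 2, and the 2 higher in miR3124 became 1 without Con replicate 2 or without miR3124 replicate 1. PPP1R15A, the subunit that directs protein phosphatase 1 to eIF2, measured 142 and 135 CPM in Con, 134 and 134 in miR3124, 149 and 152 in miR200b, 345 and 361 in miR92b_in, and 288 and 292 in MIX. Both miR92b_in and both MIX libraries lay above every library of the other groups. The log2 fold change was 1.35 ± 0.04 (SE, adjusted p = 1.44e-29) in miR92b_in and 1.07 ± 0.04 (SE, adjusted p = 2.73e-26) in MIX, and -0.05 ± 0.04 (SE, adjusted p = 0.35) in miR3124. A small rise in miR200b (0.12 ± 0.04, SE, adjusted p = 0.026) lost its call without Con replicate 2 or without miR200b replicate 2.

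CHAC1, an enzyme that degrades glutathione and is a target of ATF4 and CHOP, was scarce in Con. It measured 3.55 and 2.98 CPM in Con, 5.33 and 4.53 in miR3124, 4.41 and 4.95 in miR200b, 5.19 and 5.97 in miR92b_in, and 9.79 and 9.09 in MIX. All treated libraries lay above both Con libraries, and both MIX libraries lay above all others. In MIX the log2 fold change was 1.53 ± 0.17 (SE, adjusted p = 2.57e-10), and in miR92b_in 0.77 ± 0.19 (SE, adjusted p = 9.02e-04). The rises in miR200b (0.52 ± 0.20, SE, adjusted p = 0.03) and miR3124 (0.58 ± 0.19, SE, adjusted p = 0.011) lost their calls without Con replicate 2, and also without miR200b replicate 2 and miR3124 replicate 1, respectively, with an adjusted p of up to 0.2 and 0.11.

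TRIB3, a pseudokinase that restrains ATF4 and CHOP, measured 50.4 and 54.3 CPM in Con, 39.7 and 36.8 in miR3124, 94.7 and 98.7 in miR200b, 72.9 and 77.1 in miR92b_in, and 89.7 and 86.7 in MIX. It fell below Con in miR3124 and rose above Con in the other groups, highest in miR200b. It changed by -0.46 ± 0.06 (SE, adjusted p = 5.06e-08) on the log2 scale in miR3124, 0.89 ± 0.06 (SE, adjusted p = 4.50e-18) in miR200b, 0.52 ± 0.06 (SE, adjusted p = 4.04e-10) in miR92b_in and 0.75 ± 0.06 (SE, adjusted p = 9.36e-16) in MIX. Thus miR200b had the highest mean TRIB3 beside the lowest mean DDIT3 of the 5 groups. In direct comparisons, DDIT3 was not called between miR3124 and miR200b. TRIB3 was called lower in MIX than in miR200b, but this call was lost without miR200b replicate 2 or without either MIX library.

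SESN2, a leucine sensor and inhibitor of mTORC1, measured 22.2 and 20.9 CPM in Con, 20.3 and 21.7 in miR3124, 34.2 and 39.6 in miR200b, 28.1 and 29.5 in miR92b_in, and 34.1 and 32.8 in MIX. It rose in miR200b (0.79 ± 0.08, SE, adjusted p = 6.14e-11), MIX (0.64 ± 0.08, SE, adjusted p = 1.15e-08) and miR92b_in (0.42 ± 0.08, SE, adjusted p = 9.70e-05), each without overlap with Con, and miR3124 overlapped with Con (-0.03 ± 0.09). DDIT4, a further mTORC1 inhibitor, rose in miR200b (0.58 ± 0.08, SE, adjusted p = 1.41e-08) and MIX (0.31 ± 0.08, SE, adjusted p = 6.58e-04) and fell in miR92b_in (-0.45 ± 0.08, SE, adjusted p = 2.73e-05), and 41.2% of its annotated exons are overlapped by an antisense gene.

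VLDLR, a lipoprotein receptor induced by ATF4 under stress, rose in miR3124 and fell in the other groups. Its levels were 35.03 and 33.96 CPM in Con, 56.5 and 52.7 in miR3124, 24.9 and 21.98 in miR200b, 28.01 and 23.1 in miR92b_in, and 28.6 and 28.2 in MIX. The miR3124 libraries were above and all other treated libraries below both Con libraries. VLDLR changed by 0.66 ± 0.07 (SE, adjusted p = 1.80e-10) on the log2 scale in miR3124 and -0.57 ± 0.09 (SE, adjusted p = 3.39e-07) in miR200b, -0.44 ± 0.08 (SE, adjusted p = 3.00e-05) in miR92b_in and -0.28 ± 0.08 (SE, adjusted p = 0.0036) in MIX. STC2, a secreted glycoprotein of the stress response, moved little, from -0.24 in miR92b_in to 0.20 in MIX on the log2 scale.

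Of the 6 serine and one-carbon enzymes, 5 were lower and none was higher in miR200b, beside 19.1% and 21.4% of all genes, and 3 were lower without Con replicate 2. PHGDH catalyzes the first step of serine synthesis from glycolysis and measured 51.3 and 55.03 CPM in Con, 65.6 and 67.2 in miR3124, 24.2 and 22.1 in miR200b, 50.6 and 50.7 in miR92b_in, and 40.7 and 40.9 in MIX. The miR200b libraries were the lowest, followed by MIX, and the miR3124 libraries were the highest. Its log2 fold change was -1.21 ± 0.07 (SE, adjusted p = 3.95e-19) in miR200b, -0.38 ± 0.06 (SE, adjusted p = 1.90e-06) in MIX and 0.32 ± 0.06 (SE, adjusted p = 1.15e-05) in miR3124, and -0.07 ± 0.06 (SE, adjusted p = 0.41) in miR92b_in.

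PSAT1, the aminotransferase of the second step, measured 65.1 and 61.6 CPM in Con, 42.6 and 38.98 in miR3124, 33.9 and 33.6 in miR200b, 63.7 and 57.9 in miR92b_in, and 38.8 and 42.9 in MIX. It was lower than Con in miR200b, miR3124 and MIX without overlap, and miR92b_in overlapped with Con. PSAT1 changed by -0.91 ± 0.07 (SE, adjusted p = 1.95e-15) on the log2 scale in miR200b, -0.64 ± 0.07 (SE, adjusted p = 1.70e-11) in miR3124 and -0.63 ± 0.06 (SE, adjusted p = 1.95e-11) in MIX. PSPH, the phosphatase of the last step, fell in miR3124 (-0.53 ± 0.09, SE, adjusted p = 2.94e-06) and was called in no other group, and its pseudogene PSPHP1 had 4.83 to 7.88 CPM beside 17.5 to 27.2 CPM for PSPH, so reads may be split between them. In miR3124, PHGDH therefore rose while the enzymes of the next 2 steps fell.

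In the mitochondrial one-carbon branch, SHMT2 passes a carbon from serine to folate and MTHFD2 oxidizes the product. SHMT2 was higher in miR92b_in (0.20) and MIX (0.21) and lower in miR200b (-0.16), all below 0.25 in size on the log2 scale, and MTHFD2 was lower in miR200b (-0.22) and miR3124 (-0.15). Antisense genes overlap 33.2% of the MTHFD2 exons. ALDH1L2, which releases the carbon as carbon dioxide, was near the low end of the members at 5.21 and 6.15 CPM in Con, 4.37 and 4.02 in miR3124, 4.41 and 3.16 in miR200b, 2.86 and 3.07 in miR92b_in, and 3.93 and 2.26 in MIX. All treated libraries lay below both Con libraries. Its log2 fold change was -0.93 ± 0.22 (SE, adjusted p = 5.93e-04) in miR92b_in, -0.88 ± 0.22 (SE, adjusted p = 7.52e-04) in MIX and -0.60 ± 0.22 (SE, adjusted p = 0.021) in miR200b, and -0.44 ± 0.21 (SE, adjusted p = 0.076) in miR3124. The MIX value ranged from -1.32 to -0.53 when 1 library was left out and lost its call without MIX replicate 2, and the miR200b call was lost without Con replicate 2 or without miR200b replicate 2.

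Among the asparagine, proline and other enzymes, 4 of 5 fell in miR3124 and 4 of 5 in miR92b_in, with none higher in either, beside 25.3% and 18.2% of all genes lower. Both counts changed with 1 library left out. In miR3124, 2 were lower without Con replicate 1 or without either miR3124 library. In miR92b_in, 1 was lower without Con replicate 1 and 2 without either miR92b_in library. ASNS, which makes asparagine and is the classic amino acid response gene, measured 15.2 and 15.6 CPM in Con, 12.2 and 12.4 in miR3124, 14.7 and 17.6 in miR200b, 17.3 and 16.5 in miR92b_in, and 19.8 and 20.4 in MIX. The miR3124 libraries were the lowest and the MIX libraries the highest, neither overlapping with Con, and miR200b overlapped with Con. The log2 fold change was 0.39 ± 0.10 (SE, adjusted p = 0.0013) in MIX and -0.32 ± 0.11 (SE, adjusted p = 0.013) in miR3124, and 0.08 ± 0.11 (SE, adjusted p = 0.58) in miR200b and 0.13 ± 0.10 (SE, adjusted p = 0.34) in miR92b_in. The miR3124 call was lost without Con replicate 2 or either miR3124 library, and 44.6% of the ASNS exons are shared with a second annotated gene on the same strand.

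ALDH18A1, the first enzyme of proline synthesis, had log2 fold changes between -0.29 in miR200b and -0.13 in miR92b_in, all called lower. Only its call in miR200b was kept with each library left out in turn. PYCR1, the last enzyme of that path, PCK2, the mitochondrial PEP carboxykinase, and GPT2, the mitochondrial alanine aminotransferase, changed by less than 0.4 on the log2 scale. The exons of PYCR1 are overlapped by other genes over 14.1% on the same strand and 15.6% on the other. GPT2 fell in miR3124 (-0.37) and miR92b_in (-0.30) and rose in miR200b (0.22). The transsulfuration enzymes CTH and CBS stayed below 6 CPM. CTH rose in miR3124 (0.47 ± 0.19, SE, adjusted p = 0.035), a call lost without Con replicate 1 or miR3124 replicate 1, and CBS gave wide errors of about 0.4 (SE, log2 scale) in each comparison.

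The amino acid transporters included the largest fall of the list in miR3124. SLC7A1, which imports arginine and lysine, measured 232 and 226 CPM in Con, 108 and 107 in miR3124, 269 and 279 in miR200b, 238 and 237 in miR92b_in, and 187 and 187 in MIX. Both miR3124 libraries lay below every other library, MIX lay between miR3124 and Con, and miR200b lay above Con. The log2 fold change was -1.09 ± 0.04 (SE, adjusted p = 1.66e-26) in miR3124, -0.29 ± 0.04 (SE, adjusted p = 2.31e-08) in MIX, 0.26 ± 0.04 (SE, adjusted p = 2.13e-07) in miR200b and 0.05 ± 0.04 (SE, adjusted p = 0.29) in miR92b_in.

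SLC7A5 and SLC3A2 encode the light and heavy chains of the exchanger that imports leucine and other large neutral amino acids. SLC7A5 measured 806 and 851 CPM in Con, 553 and 539 in miR3124, 828 and 888 in miR200b, 659 and 649 in miR92b_in, and 625 and 593 in MIX. It was lowest in miR3124, then in MIX and miR92b_in, with no overlap with Con, and miR200b overlapped with Con. Its log2 fold change was -0.60 ± 0.04 (SE, adjusted p = 9.22e-19) in miR3124, -0.44 ± 0.04 (SE, adjusted p = 3.95e-14) in MIX and -0.34 ± 0.04 (SE, adjusted p = 2.34e-10) in miR92b_in. SLC3A2 measured 249 and 262 CPM in Con, 191 and 191 in miR3124, 237 and 256 in miR200b, 353 and 357 in miR92b_in, and 267 and 272 in MIX. It was low in miR3124 and high in miR92b_in, with log2 fold changes of -0.42 ± 0.04 (SE, adjusted p = 3.22e-12) and 0.48 ± 0.04 (SE, adjusted p = 7.54e-14). Both chains were therefore lower in miR3124, while in miR92b_in the light chain was lower and the heavy chain higher.

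SLC1A4 and SLC1A5, exchangers of alanine, serine, cysteine and glutamine, rose in miR3124 (0.27 and 0.26 on the log2 scale) and fell in miR92b_in (-0.46 and -0.14). The call for SLC1A5 in miR92b_in was lost without Con replicate 2 or miR92b_in replicate 2. SLC38A2, the sodium-coupled importer that is induced on starvation, rose in miR3124 (0.17) and miR200b (0.22) and fell in miR92b_in (-0.12) and MIX (-0.11), where both falls lost their calls with 1 library left out. Antisense genes overlap 23.8% of the SLC1A5 exons. SLC6A9, a glycine transporter, stayed between 5.64 and 8.34 CPM with no call against Con. XPOT, the export receptor for tRNA, was lower in miR3124 (-0.17) and miR200b (-0.19) and higher in miR92b_in (0.30). Per kilobase of annotated exon in Con, SLC7A5 was the most abundant member at 175 CPM per kb, followed by SLC38A2 at 80.5 and ATF4 at 77.6, and NUPR1 was the least at 0.0625.

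**Figure D3:**
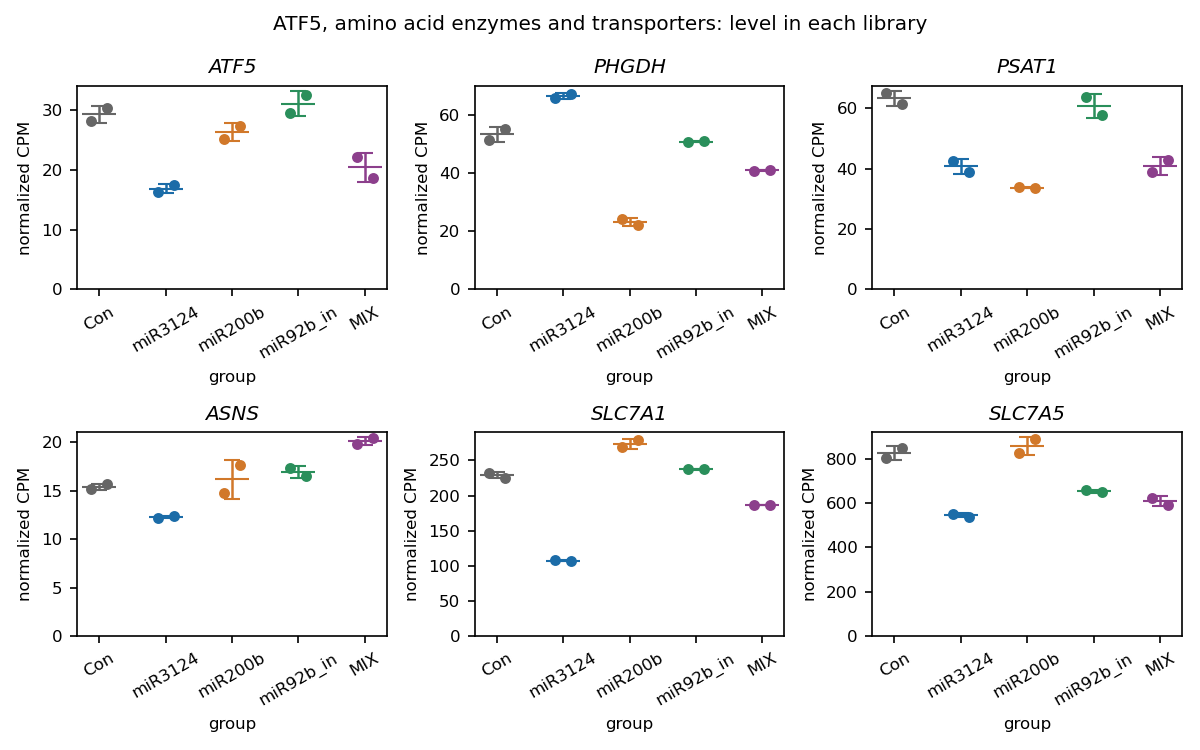
Normalized CPM (vertical axes, each starting at 0) of ATF5, 3 amino acid enzymes and 2 transporters in the 5 groups, with a point for each library, a bar at the mean and whiskers of 1 SD (n = 2). PHGDH and PSAT1 are lowest in miR200b, SLC7A1, SLC7A5, ATF5 and ASNS are lowest in miR3124, and ASNS is highest in MIX.

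The 7-base word that pairs with each seed was searched in the 3′ UTRs of 1 GENCODE transcript per gene, for 12224 tested genes including 34 members. The word of miR-200b-3p (CAGTATT) was in 6 members (17.6%, beside 19.5% of all genes), that of miR-92b-3p (GTGCAAT) in 3 (8.82% beside 13.1%), that of miR-92b-5p (CCGTCCC) in 1 (2.94% beside 4.19%), and that of miR-3124-5p (CCCGCGA) in none (beside 0.622%). Of the 6 members with the miR-200b word, PSAT1, VLDLR and CEBPG fell in miR200b (-0.91, -0.57 and -0.52 on the log2 scale), SLC38A2 rose (0.22), and PSPH (-0.11) and STC2 (0.02) were not called. Of the 11 members lower in miR200b, 3 held the word and 8 did not, among them PHGDH and JDP2. The share with the word among all genes lower in miR200b was not counted. The sites in the members that fell are shown with the word in capitals.
PSAT1, UTR position 84: tacaaaaagttaacaCAGTATTtttctca
PSAT1, UTR position 957: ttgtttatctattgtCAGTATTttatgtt
VLDLR, UTR position 243: ccttgaatttctagaCAGTATTgccacct
VLDLR, UTR position 2171: attataaggattataCAGTATTaattaat
CEBPG, UTR position 2091: tcaggggtgtgtactCAGTATTtcaaatc
Positions count from 1 at the first base of the 3′ UTR. SLC7A1, the member that fell most in miR3124, held no word for that miRNA. Of the members with a word for either arm of miR-92b, SLC7A5 (-0.34), ALDH1L2 (-0.93) and SLC38A2 (-0.12) fell in miR92b_in and SLC7A1 (0.05) was not called. As this reagent opposes its miRNA, a released target would rise, where a target of a mimic would fall. The call for SLC38A2 was lost without Con replicate 2 or miR92b_in replicate 2. A match of these letters is a description and does not show binding.

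Composite sites for C/EBP and ATF factors were searched as TGATGNAA on both strands in RefSeq promoter windows of 250 bases before to 50 bases after each start (GRCh38.p14). Of the members, 29 had at least 1 window, and 8 of these (27.6%) held the motif, beside 4.46% of 27305 genes with a window. By window the shares were 17.0% of 47 and 3.62% of 35116. The members were listed as known targets and partners of ATF4, so a higher share can follow from that choice alone. It is not read as a result of these data. The 8 were ASNS, CHAC1, CEBPG, JDP2, SLC1A4, SLC1A5, SLC3A2 and SLC7A1. For 4 of them that moved in different directions, the stretch around the motif is shown on the strand of the gene, with the motif in capitals.
ASNS, chr7:97872423-97872522, minus strand: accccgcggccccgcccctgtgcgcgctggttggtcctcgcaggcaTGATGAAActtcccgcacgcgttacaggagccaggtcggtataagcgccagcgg
CHAC1, chr15:40953221-40953315, plus strand: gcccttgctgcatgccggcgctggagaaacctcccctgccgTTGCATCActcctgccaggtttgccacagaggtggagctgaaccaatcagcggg
CEBPG, chr19:33374025-33374124, plus strand: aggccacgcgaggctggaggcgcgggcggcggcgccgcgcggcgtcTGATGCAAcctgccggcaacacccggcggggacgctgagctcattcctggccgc
SLC7A1, chr13:29595639-29595727, minus strand: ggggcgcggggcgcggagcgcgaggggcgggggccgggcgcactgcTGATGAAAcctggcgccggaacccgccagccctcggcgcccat
Counted from the annotated start as 0, the motif began at base -68 in ASNS, -209 in CHAC1, where it reads on the other strand, -42 in CEBPG and 7 in SLC7A1. These genes did not all move one way. In miR92b_in, where ATF4 mRNA was highest, CHAC1 (0.77), CEBPG (0.56) and SLC3A2 (0.48) rose, JDP2 (-0.37), SLC1A4 (-0.46) and SLC1A5 (-0.14) fell, and ASNS (0.13) and SLC7A1 (0.05) were not called. Of the falls, those of JDP2 and SLC1A5 lost their calls with 1 library left out, and that of SLC1A4 kept its call.

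The single reagents were then compared with each other. Between miR3124 and miR92b_in, 26 of 34 members differed (background 58.8%, values below being log2 differences). DDIT3 (-1.69 ± 0.11, SE), CEBPB (-1.41 ± 0.06), PPP1R15A (-1.40 ± 0.04), SLC7A1 (-1.15 ± 0.04) and ATF4 (-0.98 ± 0.04) were lower in miR3124, and VLDLR was higher (1.096 ± 0.08). Between miR3124 and miR200b, 23 differed (background 57.8%), with PHGDH (1.53 ± 0.07) and VLDLR (1.23 ± 0.08) higher and SLC7A1 (-1.35 ± 0.04) and TRIB3 (-1.34 ± 0.06) lower in miR3124. Between miR200b and miR92b_in, 25 differed (background 50.5%), with DDIT3 (-1.86 ± 0.11), PPP1R15A (-1.23 ± 0.04), PHGDH (-1.14 ± 0.07) and CEBPG (-1.08 ± 0.07) lower and DDIT4 (1.03 ± 0.08) higher in miR200b.

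The mixed group differed from each single reagent. Against miR3124, 24 members differed (background 49.1%), 18 higher in MIX and 6 lower (background 25.3% and 23.8%). TRIB3 (1.21 ± 0.06, SE), CEBPB (1.18 ± 0.06) and PPP1R15A (1.12 ± 0.04) were at the top and VLDLR (-0.94 ± 0.08) and PHGDH (-0.70 ± 0.06) at the bottom. Against miR200b, 25 differed (background 38.6%), from DDIT3 (1.17 ± 0.12) and CHAC1 (1.003 ± 0.16) to SLC7A1 (-0.55 ± 0.04), the lowest. Of the 25, 18 were higher in MIX and 7 lower (background 18.2% and 20.4%). Calls on both sides were lost in some fits that left out 1 library. Among the higher members these were ALDH18A1, ASNS, JDP2, PSAT1, SLC1A5, SLC3A2 and VLDLR, and among the lower ATF5, DDIT4, SLC1A4 and TRIB3. Against miR92b_in, 22 differed (background 39.6%), 10 higher and 12 lower (background 19.7% and 19.9%). In that comparison DDIT3 (-0.68 ± 0.09), ATF5 (-0.61 ± 0.09) and ATF4 (-0.26 ± 0.04) were lower in MIX, whereas CHAC1 (0.76 ± 0.15), DDIT4 (0.76 ± 0.08) and ASNS (0.25 ± 0.10, SE, adjusted p = 0.035) were higher. The call for ASNS was lost in each fit that left out 1 library of either group.

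To ask whether MIX equals the sum of its parts, the log2 fold change of MIX was compared with the summed log2 fold changes of the 3 single reagents. This departure passed the test in 13 of 34 members (background 21.7%), above 0 in 10 and below 0 in 3 (background 11.7% and 10.1%). For PSAT1 the single changes summed to -1.61 while MIX changed by -0.63, a departure of 0.98 ± 0.13 (SE, adjusted p = 1.04e-07). PHGDH (0.57 ± 0.13, SE, adjusted p = 6.73e-04), SLC7A1 (0.48 ± 0.08, SE, adjusted p = 5.17e-06) and SLC7A5 (0.45 ± 0.07, SE, adjusted p = 6.05e-06) likewise fell less in MIX than the sum. STC2 and GPT2 departed by 0.57 and 0.57, MTHFD2 by 0.45, ALDH18A1 by 0.43, PSPH by 0.61 and JDP2 by 0.95. SESN2 (-0.54 ± 0.17, SE, adjusted p = 0.018) and PPP1R15A (-0.35 ± 0.08, SE, adjusted p = 0.0015) rose less in MIX than the sum, and SLC38A2 departed by -0.38. The departures of ATF4 (0.10 ± 0.08, SE, adjusted p = 0.41), DDIT3 (0.07 ± 0.23, SE, adjusted p = 0.89) and CHAC1 (-0.35 ± 0.38, SE, adjusted p = 0.59) did not pass the test. The call for JDP2 was lost without Con replicate 1 and those for PPP1R15A, PSPH and SESN2 without Con replicate 2, and that for SESN2 also without replicate 2 of miR3124 or of miR200b. With the amounts in MIX not stated, a lower amount of each reagent and an interaction between reagents cannot be told apart.

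**Figure D4:**
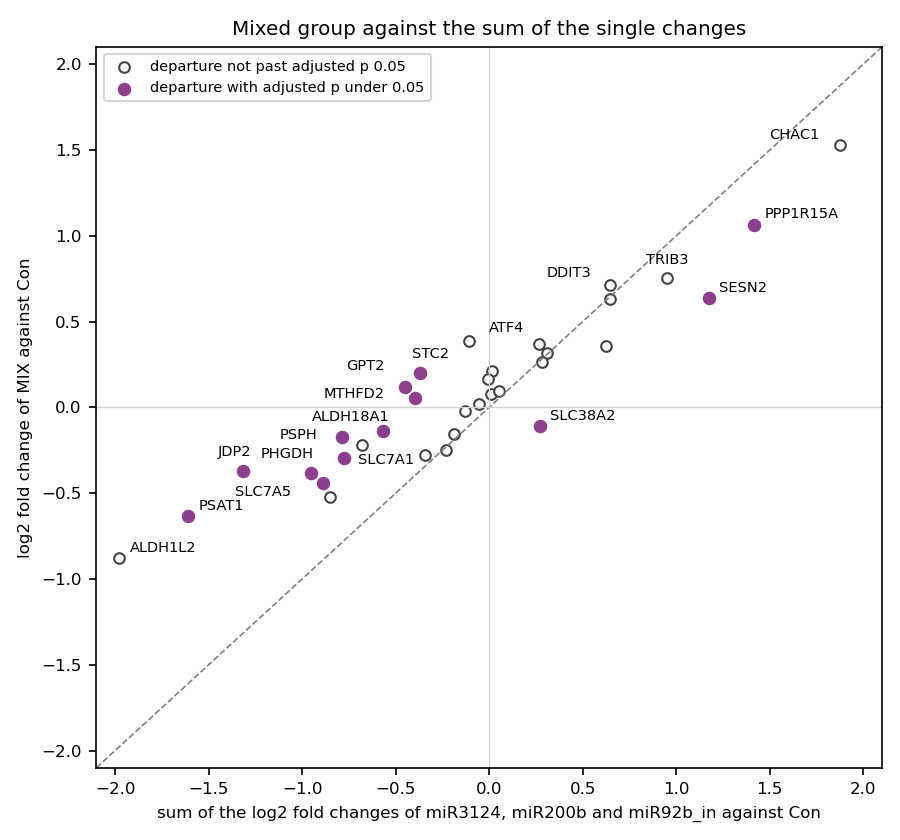
Log2 fold change of MIX against Con (vertical axis) plotted against the sum of the log2 fold changes of the 3 single reagents (horizontal axis) for the 34 tested members, with equality dashed. Filled points are the 13 members whose departure had an adjusted p under 0.05, of which 10 lie above the dashed line and 3 below.

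Other genes of the pathway were counted from lists around the members. The shares of all genes higher and lower, against which these counts are to be read, were 25.7% and 25.3% in miR3124, 21.4% and 19.1% in miR200b, 17.5% and 18.2% in miR92b_in, and 21.5% and 21.1% in MIX. Of 20 aminoacyl-tRNA synthetases, which charge tRNA with amino acids, 2 rose and 12 fell in miR3124, 6 and 3 in miR200b, 13 and 2 in miR92b_in, and 8 and 3 in MIX. With 1 library of Con or the treated group left out, the 12 that fell in miR3124 numbered 11 to 12 and the 13 that rose in miR92b_in 10 to 13, but the 6 that rose in miR200b numbered 2 without Con replicate 2. The 3 that fell in miR200b numbered 1 without miR200b replicate 2, and the 3 that fell in MIX numbered 1 without Con replicate 2 or without MIX replicate 2. Counts of 2 were no firmer, since both the 2 that rose in miR3124 and the 2 that fell in miR92b_in dropped to 1 or 0 in some of these fits. AARS, for alanine, fell the most in miR3124 (-0.71 ± 0.04, SE, adjusted p = 4.81e-19), and RARS, for arginine, rose in miR92b_in (0.27 ± 0.04, adjusted p = 4.70e-07). LARS, for leucine, fell in miR200b (-0.46 ± 0.05). CARS, for cysteine, fell in MIX (-0.57 ± 0.23, adjusted p = 0.039) at a low level, from 3.72 and 3.76 CPM in Con to 2.38 and 2.64. Of 16 genes for eIF2 kinases and translation control, 3 rose and 4 fell in miR3124, 5 and 4 in miR200b, 8 and 4 in miR92b_in, and 5 and 2 in MIX. The 8 in miR92b_in numbered 5 without miR92b_in replicate 1, and the 4 that fell in miR3124 numbered 2 without Con replicate 1 or without miR3124 replicate 2. OMA1, a mitochondrial protease that relays stress to eIF2 kinases, fell in miR3124 (-0.95 ± 0.22, SE), miR92b_in (-0.79 ± 0.21) and MIX (-0.93 ± 0.21). Its level was low, at 5.21 and 6.74 CPM in Con. EIF2B2, a subunit of the eIF2 exchange factor, rose in miR200b (0.49).

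Of 21 tested further targets of ATF4, 8 rose and 5 fell in miR3124, 7 and 7 in miR200b, 8 and 3 in miR92b_in, and 8 and 5 in MIX. The 3 that fell in miR92b_in numbered 1 without miR92b_in replicate 1, and the 5 that fell in MIX numbered 3 without MIX replicate 1. ATF3, a stress factor downstream of ATF4, measured 9.33 and 10.8 CPM in Con and 20.9 and 25.8 in miR92b_in (1.22 ± 0.12, SE, adjusted p = 1.43e-11). The zinc finger gene ZNF165 rose in miR200b (2.96 ± 0.24) and MIX (2.73 ± 0.24) from near 1 CPM, and MTHFD1L, a mitochondrial folate enzyme, fell in miR3124 (-0.97 ± 0.06). Of 9 tested folate and glycine enzymes, between 1 and 3 rose and between 1 and 2 fell in each group, and several of these counts changed by 1 with a library left out. TYMS, the thymidylate synthase, fell in miR3124 (-0.78), miR200b (-0.76) and MIX (-0.66). MTHFS, a folate-salvaging enzyme, was called higher in miR92b_in (0.32 ± 0.12, SE, adjusted p = 0.028). The MTHFS call was lost without Con replicate 2 or without either miR92b_in library.

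Of 12 genes from the other arms of the endoplasmic reticulum stress response, 4 rose and 3 fell in miR3124, 8 and 4 in miR200b, 2 and 7 in miR92b_in, and 6 and 4 in MIX. DNAJB9, a luminal chaperone of the IRE1 and XBP1 arm, rose in miR3124 (0.91 ± 0.08, SE), miR200b (0.95 ± 0.08) and MIX (0.85 ± 0.08), and ERN1, which encodes IRE1, rose in miR92b_in (0.66 ± 0.09). The 8 that rose in miR200b numbered 5 without Con replicate 2 or without miR200b replicate 2, and the 7 that fell in miR92b_in numbered 6 to 7 with 1 library left out. The 2 that rose in miR92b_in numbered 1 without Con replicate 2 or without either miR92b_in library.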

How the data were processed

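Poly(A) mRNA of BEAS2B cells was sequenced as 2 libraries in each of 5 groups (NEBNext Ultra II Directional kit, paired-end reads). The authors trimmed the reads and mapped them with TopHat, and the submitters' processing notes name the build GRCh38. The deposited values are raw counts per gene symbol without normalization, while the counting tool, its strand setting and the annotation are not given in the sources used here. Each file held 58173 rows, of which 5771 repeated a symbol, and repeats were summed.

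Genes passing edgeR's expression filter (14884) were fitted over all 10 libraries with size factors of the geometric (RLE) kind, 1 mean per group, and the quasi-likelihood test (edgeR 4.0.16, R 4.3.3), two-sided, with Benjamini-Hochberg adjustment over all genes of each comparison and a threshold of 0.05. Levels are CPM scaled by those factors, SD is over the 2 libraries of a group, and SE is that of the fitted log2 fold change. Members with an adjusted p under 0.05 and a fold of at least 1.5 in a comparison with Con, with ATF4 and ASNS, are given in every library, and each pathway list is represented by its largest called change. The members and lists were chosen with earlier results of these data known. Alternatives were TMM factors, library totals, DESeq2 1.42.0, only the groups compared, no filter, at least 10 counts in every library, the replicate block, the top row of repeated symbols, and each library left out.

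Replicate numbers did not pair the libraries (correlation of deviations between -0.0625 and 0.0613 over 10419 genes in the 10 pairs of groups), and libraries of a group differed by more than sampling noise. Gene positions and 3′ UTRs came from GENCODE v29, miRNAs and promoters from RefSeq. Sampling of reads limits members with few counts (NUPR1, CBS, CHAC1, CTH and ALDH1L2) most.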

Additional observations from a re-analysis of the deposited data

How the results depend on the processing

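Of 4658 values of single members under the alternatives, 4433 kept their direction and side of the threshold, 193 lost the call, 32 gained one, and none that was called changed direction. Of 274 counts of members, 267 stayed within 1.5 times the reported count. With DESeq2, 8 members were lower in MIX against Con in place of 13, and 6 were higher in MIX against miR92b_in in place of 10. With 1 library left out, the number lower ranged from 8 to 11 in miR92b_in against Con (lowest without miR92b_in replicate 2), from 7 to 10 in MIX against Con (reported 13, with 7 without Con replicate 1 and 8 without MIX replicate 2), from 3 to 8 in MIX against miR200b (lowest without MIX replicate 2), and the number of departures below 0 from 1 to 3 (lowest without Con replicate 2). The cause was not tested. A lone remaining library was assumed to vary like the other groups. Calls kept with each library left out in turn numbered 17 of 25 in miR3124, 15 of 20 in miR200b, 18 of 24 in miR92b_in and 17 of 25 in MIX against Con, and the same numbers were kept under all 12 alternatives of each.

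With the replicate block, the counts higher and lower against Con were 8 and 17 in miR3124, 9 and 11 in miR200b, 11 and 13 in miR92b_in, and 12 and 13 in MIX, and the departures above 0 were 11 in place of 10. The replicate block took away 0 calls and added 1 (PCK2 in the departure). The libraries share only a number, so this is not a paired design. The fit of only the groups compared was not run for the departure, which uses all 5 groups.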
